A study of Mus musculus with 2 samples.

Results

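A set of 51 genes for fat storage, fat breakdown and adipocyte identity was followed in the bladder wall of adult mice. The genes were taken by name for what they are known to do, though with earlier results of these data known. All 51 were found among the 43346 Ensembl genes quantified. By role they comprise 5 adipocyte hormones and other adipocyte products, 5 genes of fatty acid uptake and binding, 7 droplet coat genes, 4 lipases, 5 genes of triglyceride synthesis, 4 of fatty acid activation, 10 of fatty acid synthesis, desaturation and elongation, 8 of mitochondrial oxidation, and 3 of glyceroneogenesis and uncoupling. For the comparison between libraries the set was also divided into 11 genes known for high expression in white adipocytes (Adipoq, Lep, Retn, Cfd, Car3, Fabp4, Plin1, Plin4, Cidec, Lipe and Pck1, called adipocyte-enriched genes here) and the 40 others.

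The material was urinary bladder tissue of C57BL/6J mice aged 8 weeks, described as littermates of mixed sex, with health state entered as unknown and no treatment named. There was 1 group of 2 libraries, numbered as biological replicates 1 and 2. They were strand-specific paired-end libraries of polyadenylated RNA longer than 200 nucleotides after rRNA depletion, with spike-in RNA. Each library has its own biosample label, yet both point to the same donor entry and the number of animals in each is not stated, so a difference between them measures the spread of these samples and may be technical. Gene counts came to 99367453 estimated fragments in replicate 1 and 105057347 in replicate 2. At that depth 3 counts, the floor used for a gene with none, equal 0.0302 and 0.0286 CPM, counts relative to the gene total. With n = 2 no exact test of a level or ratio can reach 0.05, so values are given for each library or as mean ± SD and no p-value is given. Levels are in TPM, an abundance adjusted for the length of each transcript and the size of the library. It is used here to compare genes, although some gene pairs below changed their order by other readouts.

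White adipocytes store triglyceride in a single large droplet, coated by perilipins and enlarged by CIDE proteins. They release fatty acids from it through lipases that act in sequence on tri-, di- and monoglycerides. Fatty acids reach the cell from circulating lipoproteins or are built from acetyl-CoA, are activated to acyl-CoA, and are either esterified to glycerol or oxidized in mitochondria. Most cells carry out synthesis, activation and oxidation, whereas the hormones and the main droplet proteins of fat cells mark adipocytes, which in the bladder lie mainly in the outer connective tissue.

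Promoter sequence is shown for the genes whose level differed at least 2-fold between the libraries, since these are the genes that the comparison below turns on. Each line gives the 250 bases before the transcription start, 5′ to 3′ on the strand of the gene, from RefSeq on GRCm38.p6. Capitals mark CCAAT in either orientation in Adipoq and Pnpla3, and no searched motif lay in the stretches of Cfd and Cidec. The window of Lep holds TTGCGCAA, a palindrome bound by C/EBP factors, which was searched after that window had been read and is capitalized.
Adipoq, chr16:23146286-23146535, + strand: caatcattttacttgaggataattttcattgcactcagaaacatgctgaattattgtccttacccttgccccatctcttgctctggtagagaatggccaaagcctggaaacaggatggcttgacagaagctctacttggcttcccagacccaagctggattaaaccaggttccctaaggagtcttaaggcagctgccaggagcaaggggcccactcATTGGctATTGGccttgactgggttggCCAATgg
Lep, chr6:29059971-29060220, + strand: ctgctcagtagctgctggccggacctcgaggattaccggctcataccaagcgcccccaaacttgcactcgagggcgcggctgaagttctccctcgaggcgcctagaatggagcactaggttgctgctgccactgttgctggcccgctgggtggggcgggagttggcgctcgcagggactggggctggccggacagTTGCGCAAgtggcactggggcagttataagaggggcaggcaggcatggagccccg
Cfd, chr10:79890603-79890852, + strand: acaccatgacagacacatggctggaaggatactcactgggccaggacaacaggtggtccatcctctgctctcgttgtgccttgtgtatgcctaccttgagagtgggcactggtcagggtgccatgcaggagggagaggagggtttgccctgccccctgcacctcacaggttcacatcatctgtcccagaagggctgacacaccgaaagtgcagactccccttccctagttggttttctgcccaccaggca
Cidec, chr6:113435761-113436010, - strand, before the outer of its 2 RefSeq starts: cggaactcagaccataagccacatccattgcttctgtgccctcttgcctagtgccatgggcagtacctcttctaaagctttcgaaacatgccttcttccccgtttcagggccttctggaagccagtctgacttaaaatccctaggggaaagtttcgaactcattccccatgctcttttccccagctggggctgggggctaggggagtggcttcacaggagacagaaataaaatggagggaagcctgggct
Pnpla3, chr15:84167566-84167815, + strand: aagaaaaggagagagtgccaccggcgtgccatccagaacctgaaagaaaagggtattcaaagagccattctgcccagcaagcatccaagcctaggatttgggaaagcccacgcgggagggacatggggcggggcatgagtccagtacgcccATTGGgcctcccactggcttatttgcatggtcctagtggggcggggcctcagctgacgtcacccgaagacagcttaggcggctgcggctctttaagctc

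RefSeq windows were found for 39 of the 51 genes, 46 windows in all because some genes have more than 1 start. Car3, Fabp4, Fabp5, Lpl, Cidea, Dgat1, Dgat2, Gpd1, Scd1, Scd2, Fads1 and Cpt1b had no entry. Matches were sought on both strands from 250 bases before to 50 after the start and compared with all 32841 windows of 300 bases. CCAAT, the NF-Y box, lay in the windows of 16 genes (34.8% of the 46 windows, against 37.4% of all windows). In Adipoq it occurred 3 times within the last 34 bases before the start. In Fasn it also occurred 3 times, between 90 and 59 bases before the start. CACGTG, an E-box read by SREBP, ChREBP and Myc family factors, was found in Elovl5, Lipe, Mgll and Plin2, and in 7.15% of all windows. TATAAA was in 0 of the 46 windows and in 13.6% of all windows, and the C/EBP palindrome was in Lep and in 0.183% of all windows. TCACNCCAC, a sterol regulatory element sequence found in 1.24% of all windows, matched Ucp2 and 1 start of Acsl1. AGGNCA repeated in the same orientation 1 base apart, the form read by PPAR with RXR and found in 0.381% of all windows, matched 1 start of Elovl1. These stretches are shown because they are the matches of the rarest planned motifs, with the match in capitals.
Ucp2, chr7:100493272-100493331, + strand: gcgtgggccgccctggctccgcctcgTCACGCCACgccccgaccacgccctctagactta
Acsl1, chr8:46490864-46490923, + strand: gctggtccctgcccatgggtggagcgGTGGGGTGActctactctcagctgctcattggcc
Elovl1, chr4:118429582-118429641, + strand: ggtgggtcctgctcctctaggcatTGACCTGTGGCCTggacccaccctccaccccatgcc
A match describes letters in the window and was not tied to binding in this tissue.

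The levels of the set ran from Fabp4 at 840 ± 358 TPM to Ucp1 at 0.10 TPM in both libraries. In 48 of the 51 genes the level was at least 1 TPM in both libraries, as in 14191 of all 43346 genes. The exceptions in the set were Lep and Plin5, just under 1 TPM in replicate 1, and Ucp1. The mean was at least 100 TPM in 10 genes, between 30 and 100 TPM in 24, between 10 and 30 TPM in 9, between 1 and 10 TPM in 7, and under 1 TPM in 1. Among all genes ranked by mean TPM, 9 of the set stood in the top 1000, led by Fabp4 at rank 135, Cfd at rank 229 and Car3 at rank 267. Together the 51 genes held 0.376% of gene TPM in replicate 1 and 0.531% in replicate 2. Of the 50 steps in the order of levels, 40 separated genes whose library values overlapped. The 10 steps without overlap were Car3 over Scd1, Elovl1 over Plin2, Scd2 over Hadha, Acadl over Acadvl, Acsl5 over Cpt2, Elovl6 over Fabp3, Acsl3 over Acaca, Pck1 over Lep, Cpt1b over Cidea, and Plin5 over Ucp1.

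**Figure D1:**
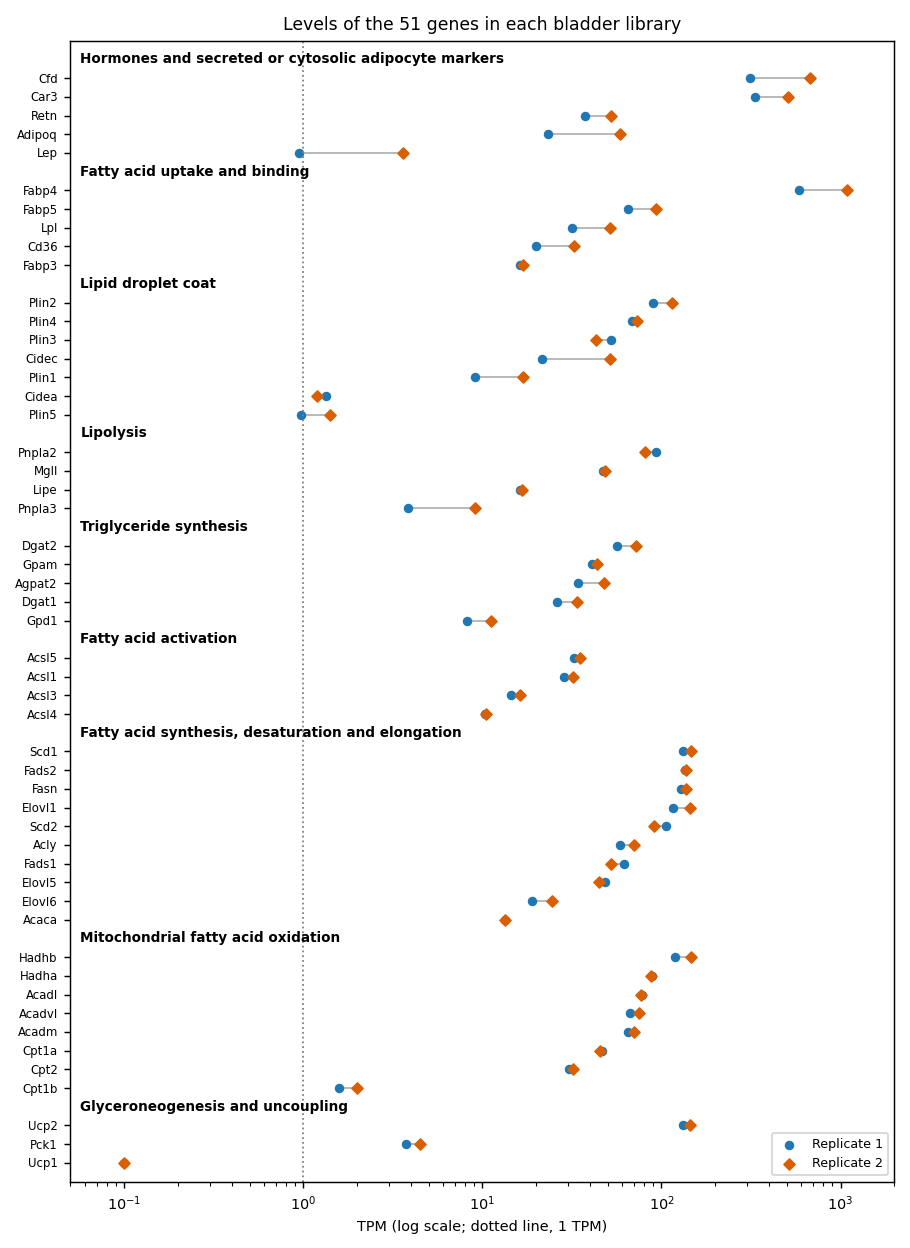
TPM of each of the 51 genes in replicate 1 (circles) and replicate 2 (diamonds) on a log scale, grouped by role, with a line joining the libraries. Fabp4, Cfd and Car3 stand highest, Ucp1 is at 0.10 TPM in both libraries, and the widest gaps are those of Lep, Adipoq, Cidec, Pnpla3 and Cfd.

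Markers of white adipocytes were present. At 1 TPM or more in both libraries were 14191 of all 43346 genes and 10 of the 11 adipocyte-enriched genes. The hormones and secreted or cytosolic products among them were all higher in replicate 2, as were 61.4% of all genes tested. Adipoq (ENSMUSG00000022878.5, chr16:23146536-23158028), which encodes the hormone adiponectin, stood at 23.4 TPM in the first library and 58.9 TPM in the second. Lep (ENSMUSG00000059201.8, chr6:29060220-29073877), which encodes leptin, the hormone that reports fat stores to the brain, was at 0.95 and 3.58 TPM from 223 and 929 counts. The exact 95% interval of the log2 ratio of these counts, scaled to each gene total and covering counting error only, was 1.77 to 2.20. Cfd (ENSMUSG00000061780.5, chr10:79890853-79892655), which encodes adipsin, the factor D of complement secreted by fat cells, was at 313 and 677 TPM. These 3 genes were each over 2-fold higher in replicate 2, with fold values of 2.49 for Adipoq, 2.81 for Lep and 2.17 for Cfd on the TPM + 0.5 scale, which understates the fold of low genes such as Lep. The share of all 14533 tested genes that were at least 2-fold higher in replicate 2 was 0.447%, and the share at least 2-fold lower was 1.14%. Retn, the gene of resistin, was at 37.6 and 52.4 TPM, a 1.39-fold ratio. Car3, a cytosolic carbonic anhydrase abundant in fat and in slow muscle, was at 333 and 508 TPM, a 1.52-fold ratio. Adipoq exceeded Lep by 4.62 on the log2 scale in replicate 1 and by 4.04 in replicate 2.

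Uptake and binding genes were led by Fabp4 (ENSMUSG00000062515.3, chr3:10204088-10208576), the fatty acid carrier of adipocytes, macrophages and capillary endothelium. It reached 587 and 1093 TPM, a 1.86-fold ratio. Fabp5, the epidermal carrier, was at 65.3 and 93.5 TPM, and Fabp3, the heart carrier, at 16.1 and 16.9 TPM. The 3 carriers kept the order Fabp4, Fabp5, Fabp3 in both libraries, with Fabp4 above Fabp5 by 3.36 ± 0.27 and Fabp5 above Fabp3 by 2.24 ± 0.32 on the log2 scale. Counts of Fabp5 and Fabp3 were not whole numbers, so fragments were divided between them and other features and their levels are less certain. Lpl, which frees fatty acids from lipoproteins at the capillary wall, was at 31.6 and 51.3 TPM. Cd36, the membrane translocase for fatty acids, was at 19.9 and 32.4 TPM. Both were higher in replicate 2 by a similar factor as whole genes, 1.62-fold for Lpl and 1.61-fold for Cd36. The log2 ratio of Lpl to Cd36 was 0.66 in each library. With protein-coding transcripts alone the log2 ratios between libraries were not alike, 0.35 for Lpl and 0.69 for Cd36.

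Droplet coat genes were led by Plin2, the perilipin found in most cells that hold droplets, at 90.2 and 114 TPM. Plin4, which coats small droplets of adipocytes and muscle, was at 68.8 and 72.9 TPM. Plin3, a perilipin that moves between cytosol and droplets, was at 52.5 and 43.3 TPM, lower in replicate 2. Plin1, which coats the large adipocyte droplet and holds lipolysis in check, was at 9.10 and 16.8 TPM, a 1.80-fold ratio. Plin5, the perilipin of oxidative tissues, was at 0.97 and 1.40 TPM from 134 and 212 counts. The order Plin2, Plin3 and Plin1 was thus the same in both libraries, with Plin5 lowest, at a log2 ratio to Plin2 of -6.44 ± 0.14. Cidec (ENSMUSG00000030278.7, chr6:113424634-113435760), which drives droplet fusion in white fat, was at 21.6 and 51.4 TPM, a 2.34-fold ratio. Its relative Cidea, a droplet protein of brown fat, was at 1.33 and 1.19 TPM from 99 and 96 counts, and the 95% counting interval of its log2 ratio, -0.55 to 0.30, spans 0.

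The lipases differed little between libraries apart from Pnpla3. Pnpla2, the triglyceride lipase ATGL that starts lipolysis, was at 93.0 and 80.7 TPM. Mgll, which cleaves monoglycerides at the last step, was at 47.1 and 48.4 TPM. Lipe, the hormone-sensitive lipase that acts on diglycerides, was at 16.1 and 16.6 TPM. The enzyme of the middle step was therefore the lowest of the lipolytic sequence in both libraries. The log2 ratio of Pnpla2 to Lipe was 2.40 ± 0.17 and that of Lipe to Mgll -1.54. Pnpla3 (ENSMUSG00000041653.4, chr15:84167837-84187236), a droplet lipase and transacylase induced by SREBP-1c, was at 3.83 and 9.13 TPM, a 2.22-fold ratio.

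Genes of triglyceride synthesis were all higher in replicate 2, by 1.06- to 1.40-fold. Of all genes tested between the libraries, 61.4% were higher there. Dgat2 and Dgat1, the unrelated enzymes of the final acylation, were at 56.7 and 71.7 TPM and at 26.2 and 33.7 TPM, so that Dgat2 was above Dgat1 by 1.10 ± 0.02 on the log2 scale. Gpam, the mitochondrial acyltransferase that begins glycerolipid assembly, was at 41.1 and 43.8 TPM, and Agpat2, which acylates lysophosphatidic acid, at 34.0 and 47.9 TPM. Gpd1, which supplies glycerol 3-phosphate from glycolysis, was lowest at 8.15 and 11.2 TPM. Among the acyl-CoA synthetases, Acsl5 was at 32.6 and 35.1 TPM and Acsl1, the main form of fat and heart, at 28.6 and 31.9 TPM. Acsl3, a synthetase of nascent droplets, was at 14.4 and 16.2 TPM, and Acsl4, which prefers arachidonic acid, at 10.3 and 10.4 TPM. This order was the same in both libraries, with ratios between libraries of 1.01- to 1.12-fold.

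Synthesis, desaturation and elongation genes were well expressed and had a median log2 ratio between libraries of 0.06. Acly, which makes cytosolic acetyl-CoA from citrate, was at 58.6 and 70.5 TPM. Acaca, the carboxylase that makes malonyl-CoA, was at 13.3 and 13.4 TPM, and Fasn, which builds palmitate from it, at 129 and 138 TPM. The carboxylase was the lowest of these 10 genes, 3.32 ± 0.07 below Fasn on the log2 scale. That difference is smaller for coding transcripts alone, which held 31.1 and 29.5 TPM of Fasn and 13.1 and 13.2 TPM of Acaca. Scd1 and Scd2, stearoyl-CoA desaturases with closely similar sequences, were at 131 and 147 TPM and at 106 and 90.5 TPM. Counts of both were not whole numbers, and Scd1 was above Scd2 in each library. Fads2 and Fads1, the desaturases of polyunsaturated fatty acids, were at 135 and 137 TPM and at 62.0 and 52.4 TPM. The elongases ran from Elovl1, which acts on saturated very long chains, at 117 and 145 TPM, through Elovl5, which acts on polyunsaturated chains, at 48.6 and 44.6 TPM, to Elovl6, which extends palmitate, at 19.0 and 24.4 TPM.

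Oxidation genes other than Cpt1b lay between 30.3 and 146 TPM. Cpt1a, the widespread form of the enzyme that admits long-chain acyl groups to mitochondria, was at 46.4 and 45.2 TPM. Cpt1b, its muscle form, was at 1.58 and 1.99 TPM, 4.69 ± 0.26 below Cpt1a on the log2 scale. Cpt2, which restores acyl-CoA inside the organelle, was at 30.3 and 31.9 TPM. The acyl-CoA dehydrogenases were close to each other. Acadl, for long chains, was at 78.1 and 76.4 TPM, Acadvl, for very long chains, at 66.8 and 75.3 TPM, and Acadm, for medium chains, at 64.9 and 69.9 TPM. Hadha and Hadhb encode the subunits of the mitochondrial trifunctional protein. They were at 88.4 and 87.3 TPM and at 119 and 146 TPM, and the counts of Hadhb were not whole numbers.

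Glyceroneogenesis and uncoupling genes ranged from high to nearly absent. Ucp2, a mitochondrial carrier found in many cell types, was at 132 and 145 TPM. Pck1, the carboxykinase of glyceroneogenesis and gluconeogenesis, was at 3.76 and 4.47 TPM. Ucp1, the proton carrier that defines brown fat, had 11 and 12 counts, equal to 0.10 TPM in each library, and the 95% counting interval of its log2 ratio ran from -1.26 to 1.37. Cidea and Ucp1 were thus both under Adipoq in each library, whereas Lep, at 0.95 TPM in replicate 1, was under Cidea there. Of 10 other brown fat genes 5 reached 1 TPM in both libraries, as did 14191 of all 43346 genes. They were led by Cox7a1 (14.8 ± 2.5 TPM), Prdm16 (4.56 ± 0.13 TPM) and Cox8b (3.16 ± 0.19 TPM). Cox7a1 rested on 166 and 215 counts and Cox8b on 38 and 42. Cox7a1 was above Pck1 and Lep in both libraries. It was above Plin1 in replicate 1 (13.02 against 9.10 TPM) but not in replicate 2 (16.62 against 16.75 TPM). Ucp3 and Zic1 were under 1 TPM in both libraries. Elovl3, an elongase of brown fat, had 0 counts, which allows up to 0.0302 CPM.

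Between the libraries, 4 of the 11 adipocyte-enriched genes and 1 of the other genes stood at least 2-fold higher in replicate 2. The lists were made with earlier results of these data known, so the division is not independent of the data. The 11 adipocyte-enriched genes had a median log2 ratio of 0.85, replicate 2 over replicate 1 on the log2(TPM + 0.5) scale, against 0.13 for the 39 other genes of the set that passed a mean of 1 TPM and 0.08 for all 14533 genes tested. Of the 50 genes of the set tested, 5 were at least 2-fold higher in replicate 2 (0.447% of all genes tested were), and 0 were at least 2-fold lower (1.14% of all were). The 5 were Lep, Adipoq, Cidec and Cfd from the adipocyte-enriched genes and Pnpla3 from the others. Fabp4 (log2 ratio 0.90), Plin1 (0.85), Car3 (0.61), Retn (0.47) and Pck1 (0.22) followed. Among the other genes the highest after Pnpla3 were Lpl (0.69), Cd36 (0.69), Fabp5 (0.51) and Agpat2 (0.49). Plin4 (0.08) and Lipe (0.04) sat at the median of all genes, and Lipe was below 0 with edgeR or DESeq2 scaling or with the length trend removed. The adipocyte-enriched genes took 0.151% of gene TPM in replicate 1 and 0.277% in replicate 2, and the other 40 genes 0.226% and 0.253%. In whole tissue a larger number of adipocytes, more of these RNAs per adipocyte, other cells that express them and a technical difference cannot be told apart.

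**Figure D2:**
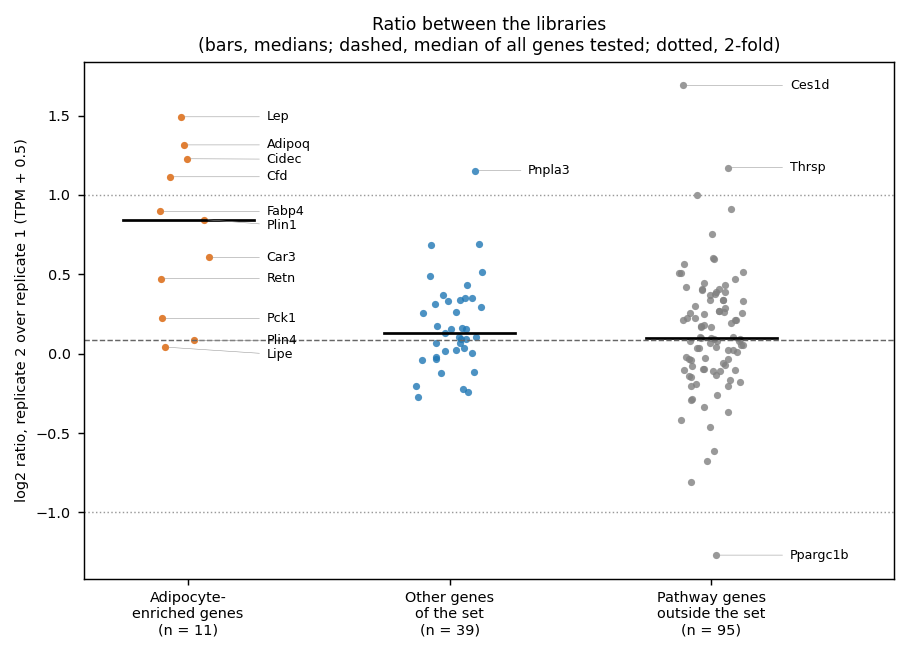
log2 ratio of TPM + 0.5, replicate 2 over replicate 1, for 11 adipocyte-enriched genes, 39 other genes of the set and 95 pathway genes outside it, with medians as bars, the median of all genes tested dashed and 2-fold dotted. The adipocyte-enriched genes all lie above 0 on this scale, Lipe not so with edgeR or DESeq2 scaling or with the length trend removed, and their median is 0.85, whereas the medians of the other columns are 0.13 and 0.10.

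Transcript length and the markers of several cell types also went with the difference between these libraries, some higher and some lower in replicate 2. Genes with transcripts under 1500 nt had a median log2 ratio of 0.21 and 1.28% of them were at least 2-fold higher, against -0.04 and 0.0959% for genes of 3000 nt and over. The adipocyte-enriched genes had a median length of 1625 nt and the others of 2691 nt. After the trend with length over all tested genes was removed, the median of the adipocyte-enriched genes was 0.67 and that of the others 0.12, Cfd was at 0.89, and the other 4 genes stayed past 2-fold, the long Lep (3259 nt) and Pnpla3 (4640 nt) among them. Of all genes tested 61.4% had a ratio above 0. Smooth muscle markers, led by Acta2, were lower in replicate 2, with 0 of 8 above 0, a median log2 ratio of -0.32 and summed levels of 27965 and 25331 TPM. Superficial urothelium markers, led by Upk1a, were higher, 6 of 6 above 0, with a median of 0.51 and sums of 4596 and 6598 TPM. Mesothelium markers, led by Msln, were higher too, 3 of 3 above 0, with a median of 0.77 and sums of 10.8 and 23.3 TPM. Basal urothelium (877 and 876 TPM, led by Krt15), fibroblast (5197 and 5091 TPM, led by Dcn), endothelium (234 and 264 TPM, led by Egfl7) and macrophage markers (563 and 624 TPM, led by Lyz2), the last pair being further sources of Fabp4 and Cd36, had median log2 ratios of 0.01, -0.17, -0.24 and 0.19. Of the striated muscle markers, led by Acta1 (sums of 1637 and 1302 TPM, median log2 ratio -0.40), Myh1, Myh4, Atp2a1 and Pvalb were under 1 TPM in both libraries. Sebaceous and mammary markers summed to 4.21 and 4.73 TPM, nearly all Mc5r, with Awat1, Csn2 and Wap at 0. The part of length and of tissue makeup in the ratios of the set was not tested.

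Outside the set, 116 further genes of these pathways were examined, of which 95 passed a mean of 1 TPM. At least 2-fold higher in replicate 2 were 2 of the 95, against 0.447% of all genes tested. At least 2-fold lower was 1 of the 95, against 1.14% of all. Their median log2 ratio was 0.10, against 0.08 for all genes tested. The 2 higher genes were Ces1d, a carboxylesterase that acts on droplet triglyceride (7.93 and 26.7 TPM, log2 ratio 1.69), and Thrsp, which promotes lipogenesis (31.4 and 71.4 TPM, 1.17). The lower gene was Ppargc1b, a coactivator of mitochondrial genes (3.09 and 0.99 TPM, -1.27). Regulators of adipogenesis and lipogenesis, 20 genes, had a median ratio of -0.01 and were led by Srebf1 (118 ± 0.53 TPM), Nr1h2 (70.7 ± 5.0 TPM) and Pparg (62.4 ± 10.3 TPM). Pparg, the master regulator of adipocyte formation, was at 55.1 and 69.7 TPM, a log2 ratio of 0.34.

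Partners of the droplet and of lipolysis were led by Aup1 (84.3 ± 16.7 TPM), G0s2, an inhibitor of ATGL (73.5 ± 18.4 TPM), and Bscl2, which encodes seipin (50.1 ± 4.8 TPM). Of these 15 tested genes 13 had a ratio above 0, against 61.4% of all genes tested, with a median of 0.33. With edgeR scaling 12 of the 15 did, against 51.7% of all. By TPM, 13 of 15 other oxidation genes and 9 of 11 import genes also lay above 0. So did 8 of 11 other synthesis genes, 4 of 6 brown fat genes and 10 of 20 regulators. For other glycerolipid genes it was 4 of 10, and for insulin and adipokine genes 2 of 9. With edgeR scaling the other oxidation genes fell to 9 of 15, near the 51.7% of all genes. With the length trend removed they fell to 7 of 15, against 54.7% of all. Import genes with edgeR scaling stayed at 9 of 11 and other synthesis genes at 8 of 11. Brown fat genes went to 3 of 6 and regulators to 8 of 20 with that scaling. Cideb, Fitm1 and Adrb1 were under 1 TPM in both libraries. Lipoprotein lipase partners and import genes were led by Apoe (967 ± 239 TPM), Dbi, an acyl-CoA binding protein (321 ± 94 TPM), and Apoc1 (40.2 ± 8.6 TPM). Slc27a2, Slc27a5, Slc27a6, Fabp1, Fabp2 and Fabp7, transporters and carriers of other tissues, were under 1 TPM in both libraries.

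Other glycerolipid genes were led by Agpat1 (77.6 ± 6.5 TPM), Agpat3 (51.7 ± 0.60 TPM) and Gpat4 (18.8 ± 2.7 TPM), with Gpat2 under 1 TPM in both libraries. Other synthesis genes were led by Tecr (175 ± 8.8 TPM), Me1 (90.3 ± 7.9 TPM) and Slc25a1 (52.1 ± 2.6 TPM), and Scd3, Scd4, Elovl2, Elovl3 and Elovl7 were under 1 TPM in both. Other oxidation genes were led by Etfb (141 ± 4.7 TPM), Acaa2 (103 ± 1.1 TPM) and Echs1 (82.6 ± 1.0 TPM), with Acsl6 under 1 TPM in both. Insulin and adipokine signalling genes were led by Slc2a4, the insulin-responsive glucose transporter (113 ± 5.3 TPM), Rbp4 (81.1 ± 29.5 TPM) and Adipor2, an adiponectin receptor (78.4 ± 8.2 TPM).

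Part of the gene TPM lay on splice forms not annotated as protein-coding. The 51 genes had 189 quantified transcripts, and 15 genes had 1 transcript each. In 38 genes at least 90% of TPM lay on transcripts annotated as protein-coding in GENCODE M21, in 5 genes under 70% did, and in 3 of those under 50%. Fasn had the lowest share, with 22.7 ± 1.9% on its coding transcript Fasn-201 (9587 nt), equal to 31.1 and 29.5 TPM. The rest lay on Fasn-203 (971 nt, 44.4 ± 1.9%) and Fasn-202 (762 nt, 32.8 ± 0.064%), short forms annotated with a retained intron. By expected counts, which are not divided by length, Fasn-201 held 80.3% and the short forms 12.8% and 6.89%. Hadha had 42.1 ± 0.91% on coding Hadha-205, with 35.7 ± 1.5% on the processed transcript Hadha-201 and 18.8 ± 1.7% on retained-intron Hadha-202. Dgat1 had 48.0 ± 2.7% on coding Dgat1-201 and the retained-intron forms Dgat1-205 and Dgat1-208 took 23.9 ± 0.48% and 17.2 ± 1.7%. Pnpla2 had 51.4 ± 2.3% on coding transcripts, while Pnpla2-201, annotated as a target of nonsense-mediated decay, held 41.9 ± 3.4%. Ucp2 had 69.3 ± 2.4% coding, divided between Ucp2-202 (33.3 ± 0.18%) and Ucp2-204 (32.8 ± 4.6%), with the processed transcript Ucp2-208 at 26.6 ± 2.5%. A smaller non-coding part was seen in Car3, where retained-intron Car3-202 held 15.5 ± 2.6%, in Acadvl, where Acadvl-203 held 11.8 ± 1.4%, and in Hadhb, where Hadhb-208 held 21.04 ± 6.3%. By expected counts the coding share was 62.1% in Hadha, 72.8% in Dgat1, 52.0% in Pnpla2 and 92.1% in Ucp2, higher than by TPM in each, though by little in Pnpla2.

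**Figure D3:**
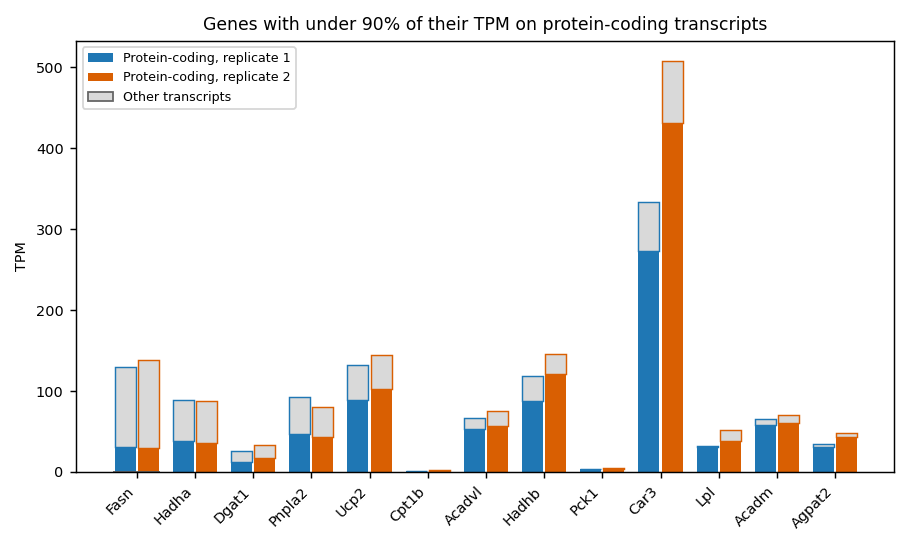
TPM of the 13 genes of the set with under 90% of their TPM on protein-coding transcripts, as stacked bars for each library, with coding transcripts in colour and all others in grey. Most of the Fasn bar is grey in both libraries, and the grey part of Lpl is larger in replicate 2 than in replicate 1.

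Of the splice forms named here, those of Lpl differed most in share between the libraries. Its coding form Lpl-201 was at 30.3 and 38.7 TPM, and Lpl-203, annotated for nonsense-mediated decay, at 1.31 and 12.5 TPM from 172 and 1800 expected counts, or 4.15% and 24.4% of the gene TPM. With coding transcripts alone the log2 ratio of Lpl between libraries was 0.35, against 0.69 for the whole gene. Plin1-202 held 60.1% and 73.0% of Plin1 and Plin1-201 the rest. Among the synthetases, Acsl3-205 held 50.5% and 67.5% of Acsl3 and Acsl3-203 31.0% and 16.2%, with Acsl3-201 at 16.4 ± 3.0%. Acsl4 was led by Acsl4-203 (56.8 ± 4.4%), followed by Acsl4-204 (17.2 ± 3.5%), Acsl4-201 (13.1 ± 0.72%) and Acsl4-202 (12.99 ± 0.17%). Cd36 used 4 coding forms, Cd36-203 (37.8 ± 2.6%), Cd36-204 (31.8 ± 1.6%), Cd36-201 (16.4 ± 3.2%) and Cd36-202 (14.0 ± 1.1%). Cidec-202 held 64.1 ± 0.17% of Cidec and Cidec-201 25.3 ± 1.3%. Lipe-202 held 83.9 ± 3.2% of Lipe and the longer Lipe-201 nearly all of the rest. Mgll was mainly Mgll-204 (79.4 ± 2.1%) with Mgll-207 at 12.6 ± 2.0%. Acly-201 and Acly-203, both coding, held 53.9 ± 2.0% and 33.8 ± 1.2%, and Elovl1 was shared by Elovl1-207 (41.5 ± 2.7%), Elovl1-203 (28.1 ± 0.52%) and Elovl1-202 (11.1 ± 2.4%). The expected counts behind these shares divide fragments that fit more than 1 transcript by estimate, and how many fragments fit only 1 of them is not known.

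Splice junction reads, counted on mm9 and summed over both libraries, showed uneven coverage along long genes. In 19 genes with at least 10 annotated junctions, the 5 junctions nearest the 3′ end had a median of reads between 0.697 and 6.84 times that of the 5 nearest the 5′ end, with a median over genes of 1.56. The value was above 1 in 16 of the 19 genes and at least 2 in 5, namely Fasn (6.84), Cpt1b (3.79), Acly (2.68), Acaca (2.37) and Gpam (2.06). In Fasn reads per junction ran from 228 to 4907, with medians of 327 at the 5′ end and 2236 at the 3′ end. Hadha (1486 and 2919) had a smaller excess at the 3′ end. Fads2 (3877 and 3136) and Acadl (2414 and 1904) had fewer reads at the 3′ end than at the 5′ end. Hadhb had few junction reads for its level, 8.74 per 100 estimated fragments, against 103 for Hadha and a median of 63.6 over the set, and its medians at the 2 ends were 66 and 46. Ucp1 had 19 junction reads in all and Lep 94.

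**Figure D4:**
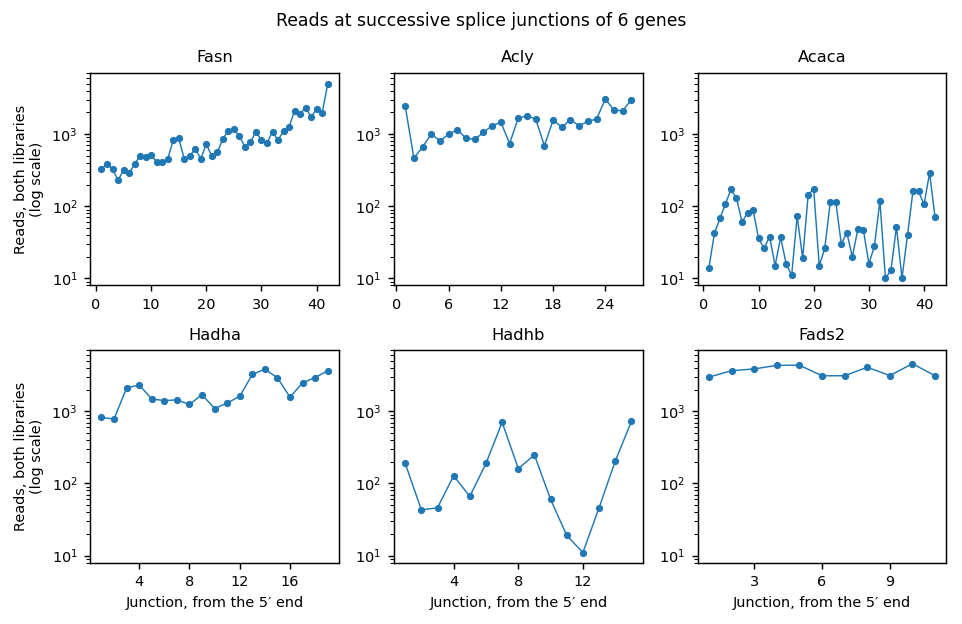
Reads at successive annotated splice junctions of Fasn, Acly, Acaca, Hadha, Hadhb and Fads2, numbered from the 5′ end, on a log scale, summed over both libraries. Fasn climbs from 327 reads (median of the 5 junctions at the 5′ end) to 2236 at the 3′ end, Fads2 stays between 2984 and 4584, and Hadhb ranges from 11 to 724.

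Ratios between relatives were compared for 27 pairs of the set, and all 27 kept their order in both libraries by TPM. By mm9 RPKM, a read density per length of transcript, 26 of the 27 kept it as well, and by median reads per junction 24 did. The log2 ratio of Hadha to Hadhb was -0.58 ± 0.22 by TPM, but 1.01 by RPKM and 3.04 by junction reads. These genes lie head to head on chromosome 5, with 85 bases between their GENCODE starts (30155162 and 30155248). Their RefSeq starts, on which the promoter windows rest, have 272 bases between them, and the windows overlap. Most of the window of Hadha lies inside the gene as GENCODE places it. The window of Hadha is shown because this pair carried the largest disagreement between readouts.
Hadha, chr5:30154981-30155230, - strand, 250 bases before the RefSeq start, no searched motif: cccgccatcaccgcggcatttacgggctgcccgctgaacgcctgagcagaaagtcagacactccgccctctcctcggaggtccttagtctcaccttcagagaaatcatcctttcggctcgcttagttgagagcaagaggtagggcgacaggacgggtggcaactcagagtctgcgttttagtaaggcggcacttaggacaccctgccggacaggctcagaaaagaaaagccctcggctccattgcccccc
The log2 ratio of Acly to Fasn was -1.05 ± 0.12 by TPM and -1.23 by RPKM, but 0.58 by junction reads and 0.94 with coding transcripts alone. Acadvl and Acadm differed by 0.08 ± 0.05 by TPM and by -0.032 by junction reads, a difference near 0 throughout. With coding transcripts alone the excess of Fasn over Acaca was 1.21 in place of 3.32, that of Pnpla2 over Lipe 1.44 in place of 2.40, and that of Dgat2 over Dgat1 2.16 in place of 1.10.

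**Figure D5:**
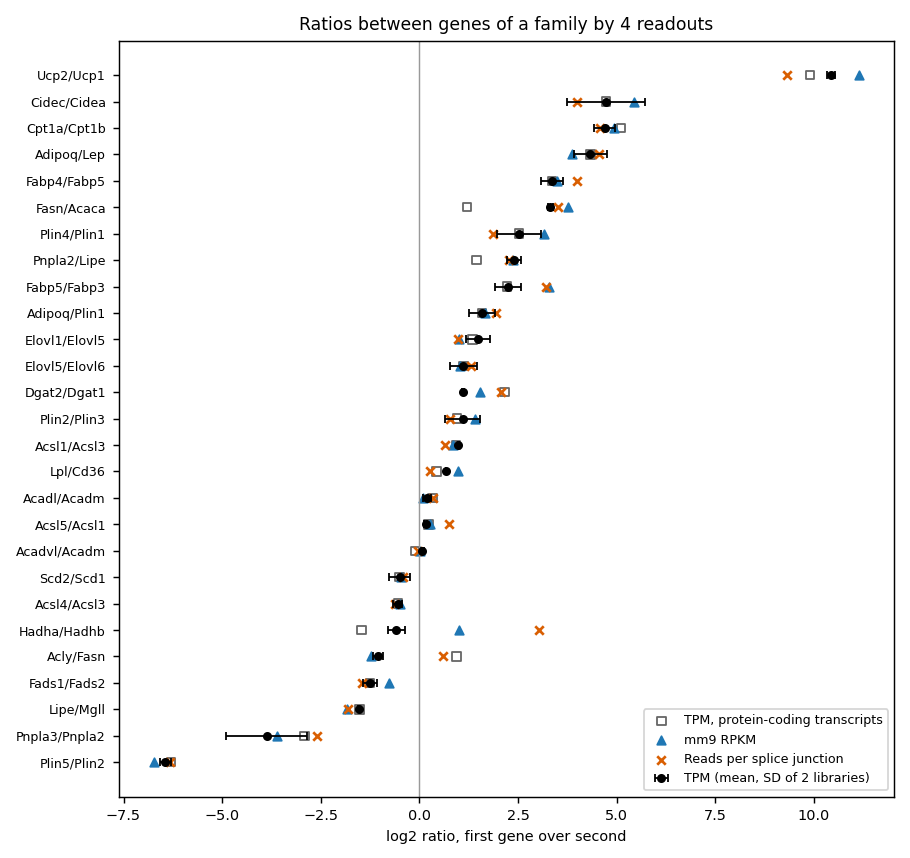
log2 ratio of 27 gene pairs by TPM (circles, mean with SD of 2 libraries), by TPM of protein-coding transcripts, by mm9 RPKM and by reads per splice junction. Most pairs keep their order by all 4 readouts, and Hadha/Hadhb, Acly/Fasn and Acadvl/Acadm have values on both sides of 0.

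Other genes of the set that lie near each other on a chromosome ranged from close to widely different levels. Genes outside the set that may lie between them were not considered. Gpam and Acsl5, 125 kb apart and head to head on chromosome 19, were at 42.5 ± 1.9 and 33.9 ± 1.7 TPM. Plin4 and Plin5 lie 1.80 kb apart on the same strand of chromosome 17, with Plin4 at 70.8 ± 2.9 TPM and Plin5 at 1.19 ± 0.30 TPM. Fabp5 and Fabp4, 187 kb apart on chromosome 3, were at 79.4 ± 19.9 and 840 ± 358 TPM. Fads2 and Fads1, 81.1 kb apart and head to head on chromosome 19, were at 136 ± 1.6 and 57.2 ± 6.8 TPM. Scd2 and Scd1, 87.6 kb apart and tail to tail on chromosome 19, were at 98.1 ± 10.7 and 139 ± 11 TPM.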

How the data were processed

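The authors deposited gene and transcript tables for each library on mm10 with GENCODE M4, holding expected counts (estimated fragments) and TPM as a maximum likelihood and a posterior mean value, per the file headers. For both libraries together they deposited mm9 tables of Ensembl 65 genes with RPKM values, of exons with a score, from which only coordinates were used, and of splice junctions with a read count summed over both libraries, per the file headers. Aligner and counter: not given in the sources used here. RPKM values were not tied to a replicate, so their mean was used.

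Of 69691 rows in each mm10 table, 43346 were Ensembl genes, of which 42462 took names and positions from GENCODE M21. Rows that name no gene held 5.01% and 5.98% of counts and were left out. Totals were 104610979 and 111741334 estimated fragments. Precision is limited by the 2 libraries, and intervals and floors cover counting error only.

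The ratio between libraries is log2(TPM + 0.5), replicate 2 over replicate 1, in genes averaging 1 TPM or more, called at 2-fold. A cubic trend with log10 transcript length, fitted to all tested genes, was removed as an alternative. Rounded expected counts gave TMM factors (edgeR 4.0.16) and size factors (DESeq2 1.42.0, R 4.3.3) as further scalings. The 2-fold rule was tried on simulated counts with known changes and counting error only. Those counts held no difference in tissue or in length trend between libraries. The simulated check of the trend removal was bound to pass, because a fit leaves no slope in its own residuals, so it shows nothing about these data. Pairs are log2 ratios of TPM. Junction reads were taken at junctions joining annotated exons of a gene, and the level per junction is the median over those with at least 10% of the top junction. Python 3.11.15, numpy 2.4.6, pandas 2.3.3, scipy 1.17.1 and matplotlib 3.10.9 were used. Promoter windows came from RefSeq (GRCm38.p6). Protein identities, also planned, were not analysed here.

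The 51 genes, lists and pairs were chosen with earlier results of these data known. Named are all 51 genes, of each pathway list the 3 of highest mean, those under 1 TPM in both libraries and those 2-fold apart, the highest gene of each marker list, and splice forms of at least 10% in genes of at least 5 TPM with more than 1 such form. Alternatives were other detection levels, pseudocounts, filters, folds, scalings and TPM estimates, and leaving out each library. The length trend, coding transcripts alone, junction reads for pairs and the C/EBP palindrome were chosen after the data were seen.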

Additional observations from a re-analysis of the deposited data

How the results depend on the processing

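With 1 group there was no contrast to pair. No paired analysis was possible because the only group has 2 libraries. The 5 genes at least 2-fold higher in replicate 2 were the same 5 under both other pseudocounts, without the low-value filter, with edgeR or DESeq2 scaling, by posterior mean TPM and by coding transcripts alone. A mean of at least 5 TPM left out Lep and removal of the length trend left out Cfd, with 4 genes each. At 1.5-fold the count was 10, with Fabp4, Plin1, Car3, Lpl and Cd36 added. The share of all tested genes past 1.5-fold was not computed, so that count has no background beside it. Lpl is in it as a whole gene, whereas its log2 ratio by coding transcripts alone was 0.35. Under each of these settings 0 genes of the set were lower by the fold used. The median log2 ratio of the adipocyte-enriched genes moved from 0.85 to 0.67 with the length trend removed and lay between 0.77 and 0.87 otherwise. The share of the set was 0.606% of expected counts in place of 0.454% of TPM, since counts weight long genes. Of the 27 pairs, Hadha/Hadhb reversed by mm9 RPKM (1.01) and by junction reads (3.04), Acly/Fasn by junction reads (0.58) and by coding transcripts alone (0.94), and Acadvl/Acadm by junction reads (-0.032) and by coding transcripts alone (-0.11). The cause was not tested. By mm9 RPKM 16 further pairs moved past 1 SD with the order kept, by junction reads 15 and by coding transcripts 12. No pair changed its order by posterior mean TPM or without either library. Of 48 transcript shares 2 moved past 1 SD by posterior mean TPM. Depth limits Ucp1 and Cidea most, with the fewest counts and the widest counting intervals of the 51 genes.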
